A study of Mus musculus with 12 samples.

Results

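The genes described here are 10 immediate-early genes, taken by symbol: *Egr1*, *Egr2*, *Egr3*, *Nr4a1*, *Nr4a2*, *Dusp1*, *Zfp36*, *Ier2*, *Ier3* and *Btg2*. All 10 were found among the 12960 genes with counts. They were measured in bone marrow-derived macrophages (BMDMs), which are macrophages grown from mouse marrow with medium of L929 cells as the source of M-CSF for 7 days. The BMDMs came from WT mice or from AMPKβ1-/- mice, a whole-body deletion of the β1 regulatory subunit of the energy sensor AMPK, so marrow and all cells derived from it lacked the subunit before differentiation began. Cells of each genotype received vehicle (0.1% DMSO) or 10 µM PF-06409577 (PF), an activator of AMPK complexes that hold β1, for 6 h. Each of the 4 groups had 3 RNA sequencing libraries. Nothing in the labels says whether the libraries of a group came from separate mice, so p-values measure the spread between these libraries, which may be technical.

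Immediate-early genes are switched on by transcription factors that a resting cell already holds, so a stimulus can raise their RNA without new protein. SRF with its ETS partners, CREB and the ERK and p38 kinase cascades are the usual route, and in macrophages growth factors, microbial ligands and adhesion all feed into it. Their RNAs are short-lived, in part through AU-rich elements in the 3′ UTR, and several of the products (phosphatases, RNA-binding and antiproliferative proteins) shut the response down again. The EGR proteins are zinc finger transcription factors that bind GC-rich sites, and the NR4A proteins are orphan nuclear receptors. DUSP1 is a nuclear phosphatase of MAP kinases. ZFP36 (tristetraprolin) binds AU-rich elements and promotes decay of cytokine RNAs. BTG2 is an antiproliferative protein that recruits the deadenylase complex, and IER2 and IER3 are small proteins induced by growth factors and stress.

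Promoter sequences of RefSeq on build GRCm38.p6, from 250 bases before to 50 bases after an annotated start, were matched for 7 of the 10 genes (*Egr2*, *Nr4a1*, *Nr4a2*, *Dusp1*, *Zfp36*, *Ier3* and *Btg2*). Both strands were searched for the CArG box bound by SRF, the cAMP response element TGACGTCA, the AP-1 sites TGACTCA and TGAGTCA, the EGR sites GCGTGGGCG and GCGGGGGCG and the TATA box TATAAA. The windows below are those of the 3 genes that fell with PF in WT BMDMs, followed by 1 of the 5 windows of *Egr2*, which had a positive log2 fold change that did not pass. Capitals mark matched sites. They lie at chr15:101266596-101266895 on the plus strand (*Nr4a1*), chr17:26508423-26508722 on the minus strand (*Dusp1*), chr1:134079106-134079405 on the minus strand (*Btg2*) and chr10:67537619-67537918 on the plus strand (*Egr2*).
Nr4a1: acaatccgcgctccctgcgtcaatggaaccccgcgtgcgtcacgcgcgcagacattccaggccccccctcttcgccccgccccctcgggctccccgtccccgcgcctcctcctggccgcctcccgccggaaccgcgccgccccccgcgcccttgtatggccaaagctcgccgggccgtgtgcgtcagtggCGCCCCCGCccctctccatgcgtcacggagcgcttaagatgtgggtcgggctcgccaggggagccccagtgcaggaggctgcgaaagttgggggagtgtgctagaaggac
Dusp1: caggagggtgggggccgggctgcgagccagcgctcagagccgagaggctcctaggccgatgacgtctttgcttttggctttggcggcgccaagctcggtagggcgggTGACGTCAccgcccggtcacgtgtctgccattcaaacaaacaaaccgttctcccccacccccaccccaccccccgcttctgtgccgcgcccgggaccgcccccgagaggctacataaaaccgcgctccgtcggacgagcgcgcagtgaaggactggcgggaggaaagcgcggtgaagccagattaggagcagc
Btg2: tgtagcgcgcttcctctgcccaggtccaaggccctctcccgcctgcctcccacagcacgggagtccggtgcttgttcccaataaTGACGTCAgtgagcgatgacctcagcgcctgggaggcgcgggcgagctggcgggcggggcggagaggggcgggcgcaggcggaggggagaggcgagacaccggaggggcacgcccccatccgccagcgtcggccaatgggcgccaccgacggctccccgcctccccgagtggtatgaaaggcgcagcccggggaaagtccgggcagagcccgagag
Egr2: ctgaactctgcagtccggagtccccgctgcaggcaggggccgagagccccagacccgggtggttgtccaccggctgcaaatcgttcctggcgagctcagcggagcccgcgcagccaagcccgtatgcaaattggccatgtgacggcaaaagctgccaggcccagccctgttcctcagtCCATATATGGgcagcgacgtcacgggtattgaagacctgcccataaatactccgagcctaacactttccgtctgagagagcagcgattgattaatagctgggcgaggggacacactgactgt
The windows of *Dusp1* and *Btg2* each hold 1 cAMP response element, 143 and 166 bases before the start, and this motif is in a window of 2.03% of the 27025 genes with one. The window of *Nr4a1* has an EGR site on the reverse strand 60 bases before the start (3.93% of genes), and *Zfp36* has an EGR site at 105 and a CArG box at 58 bases before its start. A CArG box (1.81% of genes) was found in 4 of the 5 windows of *Egr2*. Of these, the windows that begin at 67537619, 67537620 and 67537680 overlap and hold the same CCATATATGG, and the remaining one holds CCTTTTTTGG. *Nr4a2* had a TATA box on the reverse strand (15.7% of genes), *Ier3* had none of the motifs, and none of the 7 genes had an AP-1 site in its windows (5.95% of genes). These matches describe the letters of these windows and are not evidence of binding.

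The annotation (GENCODE M21, GRCm38) places *Egr2* on chromosome 10 from 67535475 to 67542188, *Egr3* on chromosome 14 from 70077203 to 70082614 and *Nr4a1* on chromosome 15 from 101254269 to 101274795. *Nr4a2* lies on chromosome 2 from 57106830 to 57124003, *Dusp1* on chromosome 17 from 26505590 to 26562128 and *Zfp36* on chromosome 7 from 28376784 to 28380253. *Ier2* is on chromosome 8 from 84661331 to 84662852, *Ier3* on chromosome 17 from 35821684 to 35822923 and *Btg2* on chromosome 1 from 134075170 to 134079120. These spans are of whole genes, so a promoter window above can lie within one, as for *Dusp1*, *Nr4a1* and *Egr2*. Most of the genes have few exons, with a median of 2 (8 in *Nr4a1* and *Nr4a2*). The median was 9 over the 10207 tested protein-coding genes with a 3′ UTR of at least 100 bases. Their transcripts are GC-rich, with a median GC content of 54.2% (range 47.9% for *Nr4a2* to 60.9% for *Ier2*) against 50.1%. The pentamer ATTTA, the core of AU-rich elements, is in the 3′ UTR of 9 of the 10 genes (70.2% of all those genes), and *Ier2* is the exception. The longer TATTTAT is in 5 of 10 (29.3% of all), and *Dusp1*, *Zfp36* and *Ier3* have 3, 3 and 4 copies, where 3.57% of all genes have 3 or more. The 30 bases of the 3′ UTR that hold the most ATTTA pentamers, in capitals, are shown for those 3 genes, since they carry the decay signal that the family is known for.
Dusp1: ggctcatgggagctggtccttATTTATTTA
Zfp36: tgggccctttATTTAtgacgactttATTTA
Ier3: ctccgtgtctaattaatATTTAtgtATTTA

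The libraries held 8935609 to 14358180 counts in genes. *Prkab1*, which encodes AMPKβ1, had at least 37.3 normalized counts (CPM, counts scaled by edgeR to library size) in every WT library and at most 9.42 CPM in every AMPKβ1-/- library, which fits the labels. Macrophage markers were abundant in all groups (8 of 8 measured, summed level 25200 to 29700 CPM). With PF in WT, 3 of the 8 were called lower and 0 higher, where 15.9% of all tested genes were called. They were *Csf1r* (-0.58), *Cd14* (-0.43) and *Itgam* (-0.39), named after their values were seen. *Mertk* (0.14), *Lyz2* (0.079), *Cd68* (-0.10), *Adgre1* (-0.15) and *Fcgr1* (-0.17) were not called. With the trend in GC content and transcript length removed 4 were lower, where 685 of 10822 tested genes were called. In AMPKβ1-/- BMDMs 0 of the 8 were called with PF, where 0.0554% of tested genes were. *Csf1r*, *Cd14* and *Itgam* fell in the comparison in which *Nr4a1*, *Btg2* and *Dusp1* fell, and their part in it was not tested. Granulocyte markers summed to at most 1.22 CPM, dendritic cell markers to at most 1.28 CPM and fibroblast markers to between 0.923 and 8.66 CPM, the highest in an AMPKβ1-/- vehicle library, and 0 of 5 lymphoid markers were among the counts. The libraries differed in how counts depended on GC content. Slopes on GC, per 10 points, were taken of log2 CPM relative to each gene's mean over the 12 libraries, so they compare a library with the average one. In WT libraries the slope was 0.358 to 0.719 with vehicle and -0.0525 to 0.367 with PF. In AMPKβ1-/- libraries it was -0.357 to -0.1 with vehicle and -0.512 to -0.332 with PF. Because the genes described here are GC-rich, the main fold changes are also given with the trend in GC content and transcript length removed (the GC adjustment). Where a trend in GC content follows a group, a technical source and a biological one cannot be told apart.

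All 10 genes passed the low-count filter that left 10822 genes for testing. *Nr4a2* passed through 5 of its 12 libraries, and the other 9 genes exceeded the limit of 0.912 CPM in all 12. Divided by transcript length, the levels in WT vehicle libraries ran from *Zfp36* at 66.5 ± 12.8 CPM per kb (SD, n = 3) through *Ier2* at 28.5 ± 0.594, *Btg2* at 17.25 ± 0.993 and *Dusp1* at 16.95 ± 1.91 to *Ier3* at 10.55 ± 1.76. The transcription factors were lower. *Nr4a1* had 4.81 ± 0.0105 CPM per kb, *Egr2* 3.57 ± 0.403, *Egr1* 2.63 ± 0.315, *Egr3* 0.73 ± 0.188 and *Nr4a2* 0.177 ± 0.0469. Of neighbours in this order, only *Btg2* and *Dusp1* had overlapping libraries. The RNA-binding, phosphatase and antiproliferative members of the set were thus higher per length than every EGR and NR4A member in WT vehicle libraries.

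**Figure D1:**
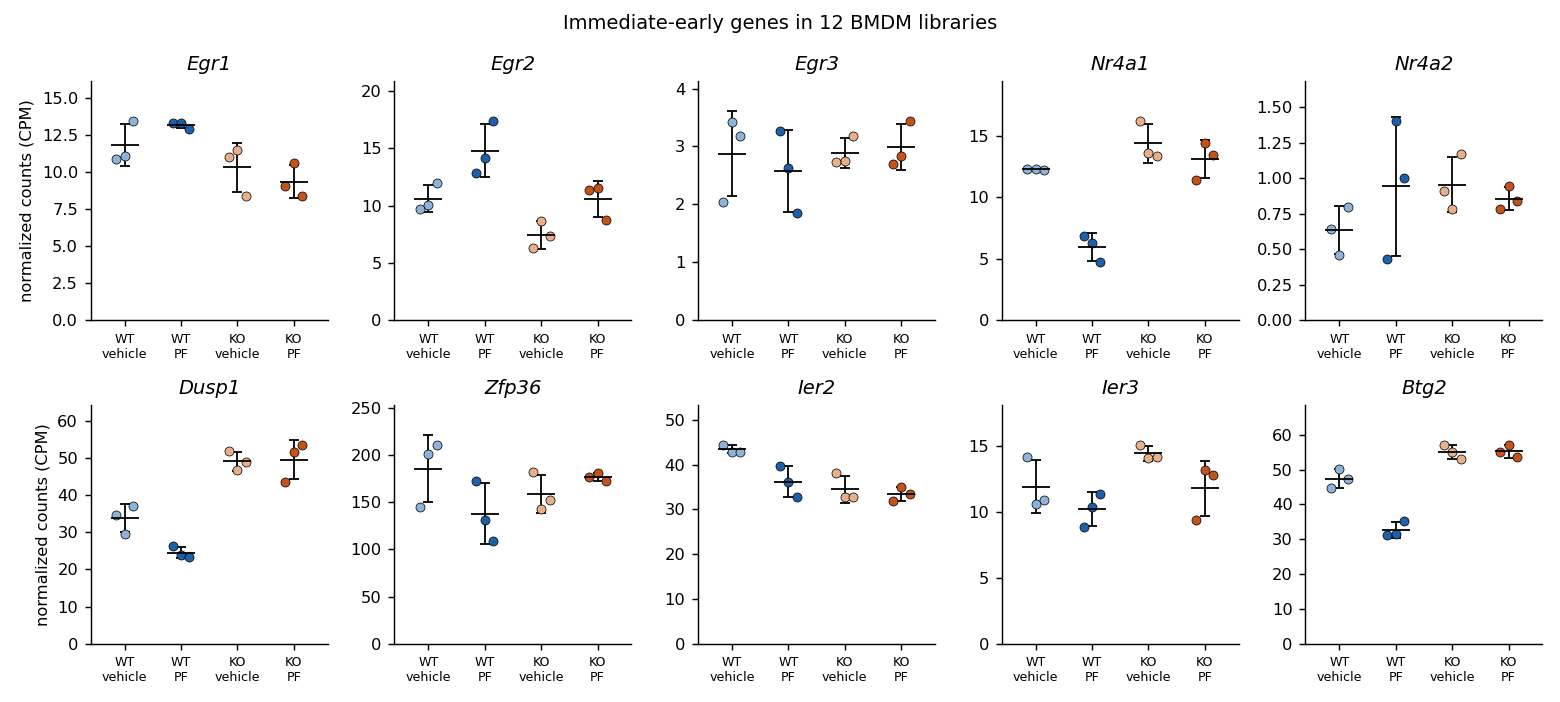
Normalized counts (CPM, linear axis from 0) of the 10 genes in each library, by group; points are libraries, and horizontal lines with bars are the mean and SD of 3 libraries; KO stands for AMPKβ1-/-. In the panel of *Nr4a1* the WT PF libraries sit between 4.69 and 6.86 CPM and the other 9 libraries between 11.4 and 16.2 CPM, and *Btg2* and *Dusp1* are also lowest in the WT PF group.

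The first comparison was PF against vehicle in WT BMDMs, which asks how the genes differed with the compound where AMPKβ1 was present. *Nr4a1*, *Btg2* and *Dusp1* fell, and no member rose past the threshold. These 3 of 10 genes had an adjusted p below 0.05, where 15.9% of all tested genes did, and 1 of them (*Nr4a1*) also passed the log2 fold change of 0.8 that the study used, where 1.52% of tested genes did. In 5 of the 10 genes PF and vehicle were separate in all libraries, where 32.2% of tested genes were. Leaving out WT PF library 1 gave 6 called members, and leaving out WT vehicle library 3 or WT PF library 2 or 3 gave 2 (*Nr4a1* and *Btg2*). Adjusted p-values are from edgeR's quasi-likelihood test over all tested genes. In bulk RNA a lower level in every cell and fewer cells that express a gene cannot be told apart.

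*Nr4a1* (Nur77) had 12.3, 12.3 and 12.2 CPM in the WT vehicle libraries (115, 133 and 123 counts) and 6.86, 6.27 and 4.69 CPM in the WT PF libraries (80, 67 and 61 counts). Every PF library was below every vehicle library, and the vehicle libraries were nearly equal. The log2 fold change was -1.05 (SE 0.161, 95% interval -1.37 to -0.74, adjusted p = 0.00149), which is 0.482 of the vehicle level. With the trend in GC content and length removed it was -0.77 (adjusted p = 0.00116). That adjusted value falls short of the log2 fold change of 0.8. The adjusted p of *Nr4a1* stayed below 0.05 in each of the 20 alternatives, from 4.39e-06 to 0.0174.

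*Nr4a2* (Nurr1), the other NR4A receptor among the members, was close to the limit of detection, with 5 to 15 counts in any of the 12 libraries. It had 0.642, 0.462 and 0.796 CPM with vehicle and 0.429, 1.4 and 1.0 CPM with PF in WT BMDMs, and the groups overlapped. Its log2 fold change was 0.56 (95% interval -0.27 to 1.40, adjusted p = 0.347), so a change in either direction was not detectable at this depth. *Nr4a3*, the third receptor of the family, did not reach the counts needed for the test.

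*Btg2* had 44.58, 50.03 and 47.37 CPM with vehicle and 31.1, 31.4 and 35.2 CPM with PF in WT BMDMs. The groups did not overlap, and the log2 fold change was -0.54 (SE 0.086, adjusted p = 0.00187), or 0.689 of the vehicle level. Removing the trend in GC content and length left -0.50 (adjusted p = 0.00122). Its adjusted p lay between 1.19e-05 and 0.0258 over 20 alternatives.

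*Dusp1* (MKP-1) had 34.8, 29.5 and 36.9 CPM with vehicle and 26.33, 23.96 and 23.31 CPM with PF in WT BMDMs. The PF libraries were all lower, and the log2 fold change was -0.46 (SE 0.110, adjusted p = 0.0163). This call was lost with the trend in GC content and length removed (-0.24, adjusted p = 0.134). It was also lost without WT vehicle library 1 (adjusted p = 0.0551) or 3 (0.0644), without WT PF library 2 (0.0625) or 3 (0.0795), and in a fit of WT libraries only (0.0637).

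*Zfp36*, the member with the highest level per length, had 145, 201 and 211 CPM with vehicle and 173, 131 and 109 CPM with PF in WT BMDMs. The groups overlapped through vehicle library 1 and PF library 1, and the log2 fold change of -0.43 did not pass (SE 0.163, adjusted p = 0.082). Without WT vehicle library 1 it was -0.58 (adjusted p = 0.0462) and without WT PF library 1 it was -0.63 (adjusted p = 0.01). With the trend in GC content and length removed it was -0.24 (adjusted p = 0.433).

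*Ier2*, the most GC-rich of the genes, had 44.5, 42.9 and 42.9 CPM with vehicle and 39.7, 36.1 and 32.7 CPM with PF in WT BMDMs. The groups did not overlap but the log2 fold change of -0.26 did not pass (SE 0.097, adjusted p = 0.0708), and the GC adjustment left 0.0073. *Ier3* had 14.22, 10.61 and 10.95 CPM with vehicle and 8.83, 10.4 and 11.4 CPM with PF, with overlapping groups and a log2 fold change of -0.22 (adjusted p = 0.336; -0.084 with the GC adjustment).

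The EGR genes gave no call. *Egr2* had 9.73, 10.1 and 11.9 CPM with vehicle and 12.9, 14.1 and 17.4 CPM with PF in WT BMDMs. The PF libraries were all higher, with a log2 fold change of 0.49 that stayed just over the threshold (SE 0.164, adjusted p = 0.055). With the trend in GC content and length removed it was 0.60 and passed (adjusted p = 0.041), and it passed in 6 of 20 alternatives in all, with adjusted p from 0.0222 to 0.247. *Egr1* had 10.9, 11.1 and 13.4 CPM with vehicle and 13.3, 13.3 and 12.9 CPM with PF, and its log2 fold change was 0.16 (95% interval -0.13 to 0.45, adjusted p = 0.451), or 0.46 with the GC adjustment (adjusted p = 0.0506). *Egr3*, at 19 to 42 counts a library, had 2.03, 3.42 and 3.19 CPM with vehicle and 3.26, 2.62 and 1.85 CPM with PF (log2 fold change -0.18, adjusted p = 0.632; -0.079 with the GC adjustment).

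In AMPKβ1-/- BMDMs the same comparison gave 0 calls among the 10 genes with edgeR, and 0.0554% of all tested genes were called. At an unadjusted p below 0.05 there was 1 member (*Egr2*), against 539 of all 10822 tested genes. DESeq2 and limma-voom called 0 members as well. Groups did not overlap for 2 members (*Egr2* and *Ier3*), where 14.5% of tested genes did not overlap. *Nr4a1* had 16.2, 13.6 and 13.4 CPM with vehicle and 11.4, 14.5 and 13.5 CPM with PF. Those groups overlapped, and the log2 fold change was -0.13 (95% interval -0.42 to 0.15, adjusted p = 0.982). *Btg2* had 57.1, 55.1 and 53.1 CPM with vehicle and 55.0, 57.2 and 53.5 CPM with PF. Its log2 fold change was 0.0026 (95% interval -0.16 to 0.17), and that of *Dusp1* was 0.013 (-0.19 to 0.22). *Zfp36* overlapped between the groups too, at 0.15 (-0.16 to 0.47).

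*Egr2* in AMPKβ1-/- BMDMs had 6.29, 8.67 and 7.32 CPM with vehicle and 11.3, 11.5 and 8.74 CPM with PF. All 3 PF libraries were higher than the vehicle libraries, by a log2 fold change of 0.50 in edgeR (SE 0.172, adjusted p = 0.642). *Ier3* had 15.1, 14.1 and 14.2 CPM with vehicle and 9.41, 13.2 and 12.8 CPM with PF, so the PF libraries were lower, by a log2 fold change of -0.29 (adjusted p = 0.982). The remaining members *Egr1*, *Egr3* and *Ier2*, had log2 fold changes of -0.15, 0.056 and -0.040, and *Nr4a2* had -0.12 with a 95% interval from -0.89 to 0.65.

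**Figure D2:**
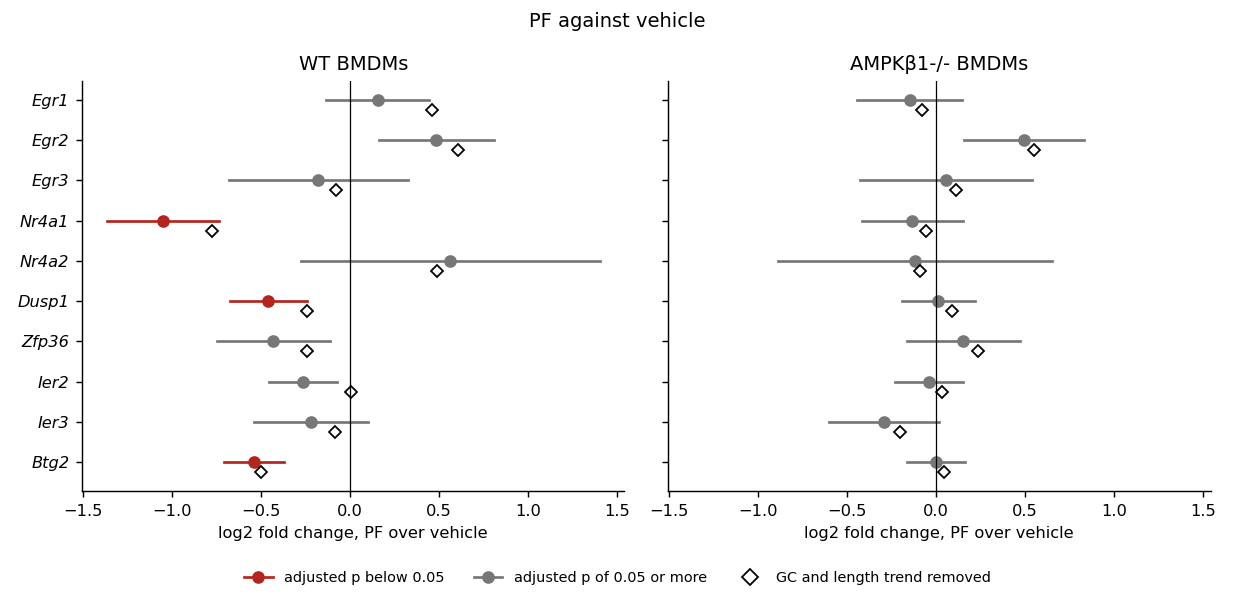
Log2 fold change of PF over vehicle (horizontal axis) for each gene in WT (left) and AMPKβ1-/- BMDMs (right); circles are edgeR estimates with 95% intervals, red where the adjusted p was below 0.05, and open diamonds are estimates with the trend in GC content and length removed. *Nr4a1* (-1.05), *Btg2* (-0.54) and *Dusp1* (-0.46) are red in WT and none of the genes is red in AMPKβ1-/- BMDMs, where *Btg2* and *Dusp1* lie at 0.0026 and 0.013.

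An interaction term tested whether WT and AMPKβ1-/- BMDMs differed in their response to PF (the log2 fold change in WT minus that in AMPKβ1-/- BMDMs). With edgeR 0 of 10 genes passed, where 0.416% of all tested genes did. An unadjusted p below 0.05 was found for 4 members, and for 1550 of all 10822 tested genes. *Btg2* had a difference of -0.54 (SE 0.120, adjusted p = 0.07) and *Nr4a1* one of -0.92 (SE 0.217, adjusted p = 0.0734). Both passed with DESeq2 (adjusted p = 0.0105 and 0.0235), under the GC adjustment (0.0256 and 0.0457) and without WT PF library 1 (0.0433 and 0.0272), and limma-voom called 0 members. Over all genes 190 passed with DESeq2, 142 under the GC adjustment and 284 without WT PF library 1. *Dusp1* had a difference of -0.47 (adjusted p = 0.182) and *Zfp36* one of -0.58 (adjusted p = 0.282), at -0.33 and -0.48 with the GC adjustment. *Egr2*, called in neither genotype, had a difference of -0.0096 with a 95% interval from -0.47 to 0.45.

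The genotypes were next compared with each other at matched treatment. Both comparisons share their libraries with those above, so they are not independent of them. With vehicle, 4 of 10 genes passed, where 59.7% of all tested genes did. *Dusp1* (0.54, SE 0.107, adjusted p = 6.12e-04) and *Btg2* (0.22, SE 0.084, adjusted p = 0.0344) were higher in AMPKβ1-/- BMDMs. *Egr2* (-0.50, SE 0.174, adjusted p = 0.0222) and *Ier2* (-0.33, SE 0.097, adjusted p = 0.0081) were lower. None had a log2 fold change beyond 0.8, where 17.8% of tested genes passed that rule too, and groups did not overlap for 5 members, where 62.9% of tested genes did not. The members' shares were below those over all genes. *Btg2* lost its call without WT vehicle library 1 or 3 or AMPKβ1-/- vehicle library 1 or 2, and *Egr2* without WT vehicle library 3 or AMPKβ1-/- vehicle library 1 or 3, so that 2 members remained without WT vehicle library 3 or AMPKβ1-/- vehicle library 1.

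The direction of these calls depended on the scaling. With library size alone, the 4 genes called were all higher in AMPKβ1-/- BMDMs (*Nr4a1*, *Dusp1*, *Ier3* and *Btg2*), where 5896 tested genes were called in either direction. With the trend in GC content and length removed, 5 were higher and 0 lower. Over all 10822 tested genes 2803 were then higher and 1119 lower. *Ier2* turned from -0.33 to 0.27 with that trend removed (adjusted p = 0.0089). *Dusp1* and *Btg2* were higher in AMPKβ1-/- BMDMs under TMM, library size and the GC adjustment alike, at 1.03 and 0.41 under the last. *Egr2*, at -0.20, no longer passed there (adjusted p = 0.416). Over all genes the median log2 fold change of this comparison was -0.026 with TMM, 0.183 with library size alone and 0.116 with the GC adjustment.

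With PF, 5 of 10 genes passed between the genotypes, where 47.1% of all tested genes did. *Nr4a1* was higher in AMPKβ1-/- BMDMs by 1.15 (SE 0.158, adjusted p = 5.77e-05), *Dusp1* by 1.01 (SE 0.108, adjusted p = 6.58e-06) and *Btg2* by 0.76 (SE 0.085, adjusted p = 9.85e-06). *Nr4a1* and *Dusp1* were also beyond 0.8, which 14.3% of tested genes were. *Egr1* (-0.49, adjusted p = 0.0134) and *Egr2* (-0.49, adjusted p = 0.022) were lower. The groups did not overlap for these 5 members, against 59.9% of tested genes. With library size alone 4 were higher and 0 lower, where 4803 tested genes were called in either direction. With the GC adjustment 6 were higher and 0 lower, against 2939 and 1306 over all 10822 tested genes. *Nr4a1* was then at 1.47, *Dusp1* at 1.36 and *Btg2* at 0.96. *Egr1* and *Egr2* stood at -0.32 (adjusted p = 0.0749) and -0.25 (adjusted p = 0.238) under the GC adjustment. Without AMPKβ1-/- PF library 3, 3 members passed (*Nr4a1*, *Dusp1* and *Btg2*), and *Egr2* also lost its call without WT PF library 3.

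**Figure D3:**
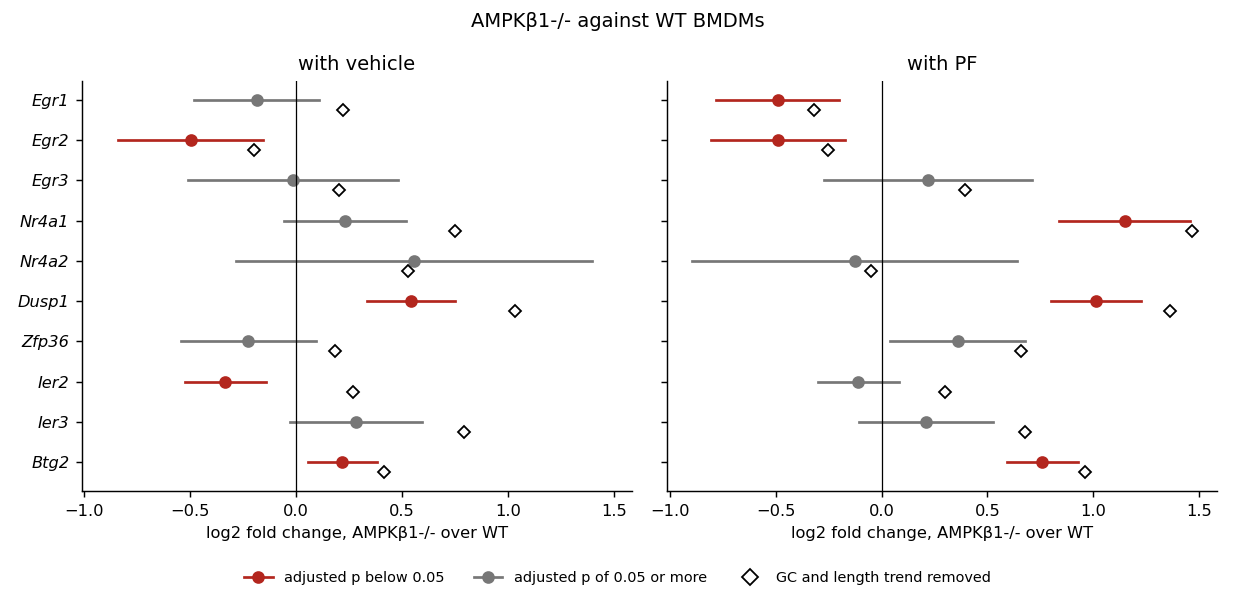
Log2 fold change of AMPKβ1-/- over WT BMDMs (horizontal axis) for each gene with vehicle (left) and with PF (right), drawn as circles with 95% intervals, red where the adjusted p was below 0.05, and with open diamonds for the estimates with the trend in GC content and length removed. *Nr4a1* moves from 0.23 with vehicle to 1.15 with PF, and every diamond but that of *Nr4a2* with vehicle lies to the right of its circle.

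GC content was related to the fold changes across all genes. Over 10790 tested genes with a known GC content, Spearman's correlation between GC content and the log2 fold change was -0.708 for PF in WT and -0.763 for AMPKβ1-/- against WT with vehicle, given here as a description across genes that share these libraries. The median log2 fold change of PF in WT was 0.466 for genes of 40 to 42% GC and -0.227 for genes of 56 to 58%, the bin of *Nr4a1* (57.0%). *Btg2* (49.7% GC) had -0.54 where the median of the bin of 48 to 50% was 0.0645, whereas *Ier2* at -0.26 was at the median of its bin of 60 to 62% (-0.266). *Egr1* (57.3%) and *Egr2* (51.4%) lay above the medians of their bins, which were -0.227 and -0.0517. What part GC content has in the called differences was not tested beyond the adjusted fits.

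**Figure D4:**
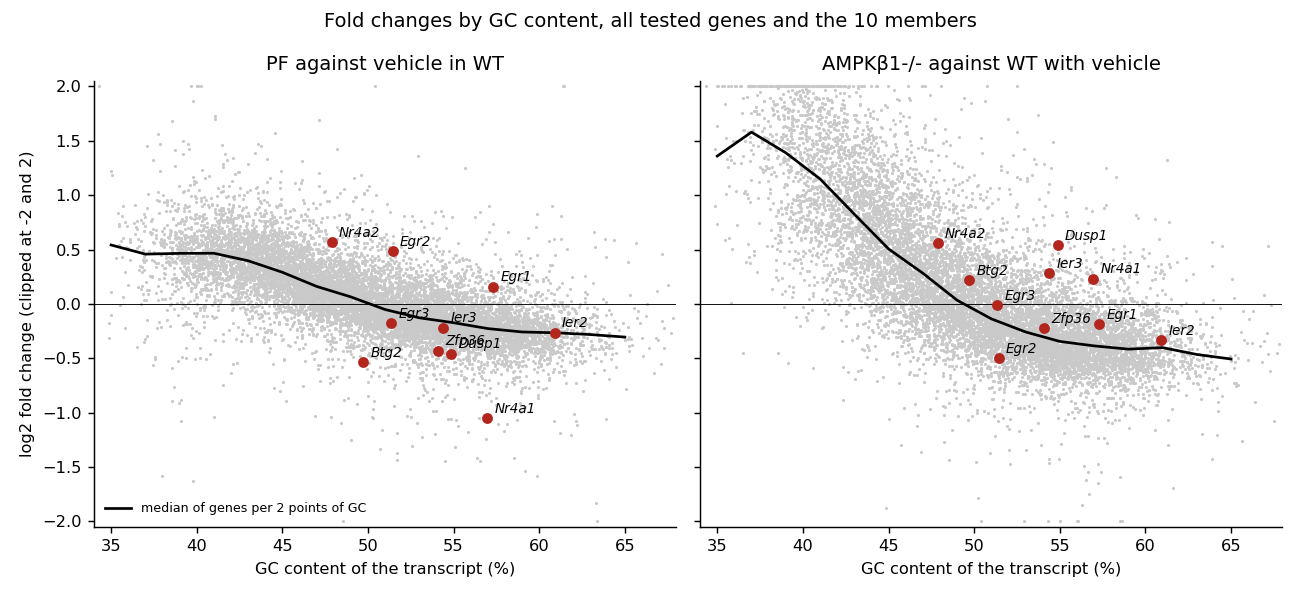
Log2 fold change (vertical axis, values beyond 2 drawn at the edge) against GC content of the transcript in percent for all tested genes (grey), with the median per 2 points of GC (black line) and the 10 genes in red, for PF in WT (left) and for AMPKβ1-/- against WT with vehicle (right). The median falls from 0.466 at 40 to 42% GC to -0.227 at 56 to 58% on the left, with *Nr4a1* and *Btg2* below the line, and from 1.15 to -0.386 on the right, with *Dusp1*, *Ier3* and *Nr4a1* above it.

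Of 14 listed family relatives and binding partners of the members 12 were tested (*Egr4* and *Nr4a3* were not). With PF in WT BMDMs 1 rose and 2 fell, where 15.9% of all tested genes were called. With the GC adjustment 1 rose and 1 fell (*Btg1*, -0.50, adjusted p = 0.00303), against 422 and 263 over all genes. *Dusp4*, another nuclear MAP kinase phosphatase, rose by 0.35 (adjusted p = 0.019; 0.61 with the GC adjustment), from 47.5 ± 4.05 to 60.5 ± 4.37 CPM (SD, n = 3), so the 2 phosphatases *Dusp1* and *Dusp4* moved in opposite directions. *Ier5* fell by 0.31 (adjusted p = 0.0229) and *Nab2*, a corepressor of EGR proteins, fell by 0.27 (adjusted p = 0.0482), and neither passed with the GC adjustment, where *Nab2* was at 0.062. In AMPKβ1-/- BMDMs 0 of the 12 were called with PF, with 0 at an unadjusted p below 0.05. Between the genotypes with vehicle 4 were higher and 2 lower in AMPKβ1-/- BMDMs, where 59.7% of all tested genes were called. With the GC adjustment 4 were higher and 1 lower, against 2803 and 1119 over all genes. The lower gene was *Btg1*, which turned from 0.32 (adjusted p = 0.00286) to -0.45 (adjusted p = 0.00135). *Nab1*, the other NAB corepressor, was higher in AMPKβ1-/- BMDMs by 1.22 (adjusted p = 6.65e-05; 1.09 with the GC adjustment), with 16.2 ± 3.43 CPM in WT and 38.1 ± 3.93 in AMPKβ1-/- vehicle libraries. *Zfp36l1*, a relative of *Zfp36*, was higher by 0.54 (adjusted p = 0.00148; 0.66 with the GC adjustment), and *Nab2* was lower by TMM (-0.41, adjusted p = 9.51e-04) but at 0.145 with the GC adjustment.

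Of 31 other immediate-early genes on a list 26 were tested (*Fosb*, *Fosl1*, *Ccn1*, *Ptgs2* and *Gem* were not). With PF in WT BMDMs 1 rose and 6 fell, where 15.9% of all tested genes were called (756 rose and 969 fell). With the GC adjustment the balance of the list turned, to 5 that rose and 2 that fell, against 422 and 263 over all genes. *Trib1*, a pseudokinase that directs C/EBPα to degradation, had 21.1, 19.9 and 21.4 CPM with vehicle and 11.2, 11.2 and 9.15 CPM with PF. It fell by 0.99 (SE 0.113, adjusted p = 3.94e-04). *Fos*, the partner of JUN in AP-1, had 93.3, 107 and 118 CPM with vehicle and 67.0, 73.4 and 68.7 CPM with PF, a fall of 0.61 (SE 0.088, adjusted p = 0.00121). *Klf2*, *Per1* and *Junb* fell by 0.43, 0.40 and 0.38 (adjusted p = 0.011, 0.0179 and 0.0256), and none of these 3 passed with the GC adjustment. *Plk2*, a polo-like kinase, rose by 0.58 (adjusted p = 0.00103). *Trib1*, *Fos* and *Plk2* passed with the GC adjustment too, at -0.78, -0.49 and 0.52. The others that rose there, not called in the reported fit, were *Jun* (0.47), *Pim1* (0.37), *Atf3* (0.31) and *Rhob* (0.27). Members of the AP-1 family thus went in both directions.

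In AMPKβ1-/- BMDMs PF gave 0 calls among the 26 genes with edgeR (2 at an unadjusted p below 0.05, against 539 of 10822 tested genes). These 2 were *Plk2* (0.24, adjusted p = 0.607) and *Maff* (0.51, adjusted p = 0.982). For *Plk2*, which rose in WT, the edgeR interaction did not pass (0.34, adjusted p = 0.209). *Trib1* had 33.3, 30.8 and 29.5 CPM with vehicle and 30.1, 28.6 and 27.6 CPM with PF there, and *Fos* had 173, 182 and 180 CPM with vehicle and 177, 187 and 199 CPM with PF. The interaction passed for *Trib1* (-0.87, adjusted p = 0.0236) and for *Fos* (-0.68, adjusted p = 0.0261), where 0.416% of all tested genes passed. Between the genotypes with vehicle 9 genes of the list were higher and 9 lower in AMPKβ1-/- BMDMs, where 59.7% of all tested genes were called. With PF 8 were higher and 5 lower, where 47.1% were called. With the GC adjustment 13 were higher and 0 lower with vehicle, against 2803 and 1119 over all genes. *Klf2* was lower with vehicle (-0.56) and *Klf6* higher (0.85), at 0.027 and 0.053 with the GC adjustment. *Fos* was higher by 0.75 with vehicle and 1.43 with PF, and *Trib1* by 0.58 and 1.46. With the GC adjustment these were 1.10 and 1.72 for *Fos* and 0.90 and 1.63 for *Trib1*. *Trib1* had the same order of groups as *Nr4a1*, with the WT PF libraries lowest.

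The factors upstream of immediate-early genes were also listed: SRF and its partners, CREB and its coactivators, and the RAF, MEK, ERK and RSK kinases. All 21 were tested, and with PF in WT BMDMs 0 rose and 5 fell, where 15.9% of all tested genes were called. With the GC adjustment 0 rose and 2 fell, against 422 and 263 over all genes. *Rps6ka1*, which encodes the kinase RSK1, fell by 0.53 (adjusted p = 0.00295), and *Elk3*, an ETS partner of SRF, fell by 0.43 (adjusted p = 0.00743). Both passed with the GC adjustment, at -0.25 and -0.45. *Mapkapk2*, *Mrtfa* and *Mapk3* fell by 0.28, 0.32 and 0.30 (adjusted p = 0.0234, 0.0235 and 0.0262) but were at 0.016, -0.012 and -0.033 with the GC adjustment. In AMPKβ1-/- BMDMs 0 of 21 were called, with 0 at an unadjusted p below 0.05. With vehicle, 7 were higher and 8 lower in AMPKβ1-/- than in WT BMDMs, where 59.7% of all tested genes were called. With the GC adjustment 9 were higher and 1 lower, against 2803 and 1119 over all genes. Among the upstream factors *Rps6ka3* and *Braf* were higher by 1.504 and 1.52 (0.34 and 0.52 with the GC adjustment). *Mapk3* was lower at -0.52 (0.058 with the GC adjustment). Over the lists, the median log2 fold change with PF in WT was -0.24 for the 10 members, -0.15 for the relatives, -0.14 for the other immediate-early genes and -0.10 for the upstream factors, where the median of all tested genes was 0.0048. With the GC adjustment these medians were -0.081, 0.085, 0.048 and 0.055 against 0.041 over all genes.

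**Figure D5:**
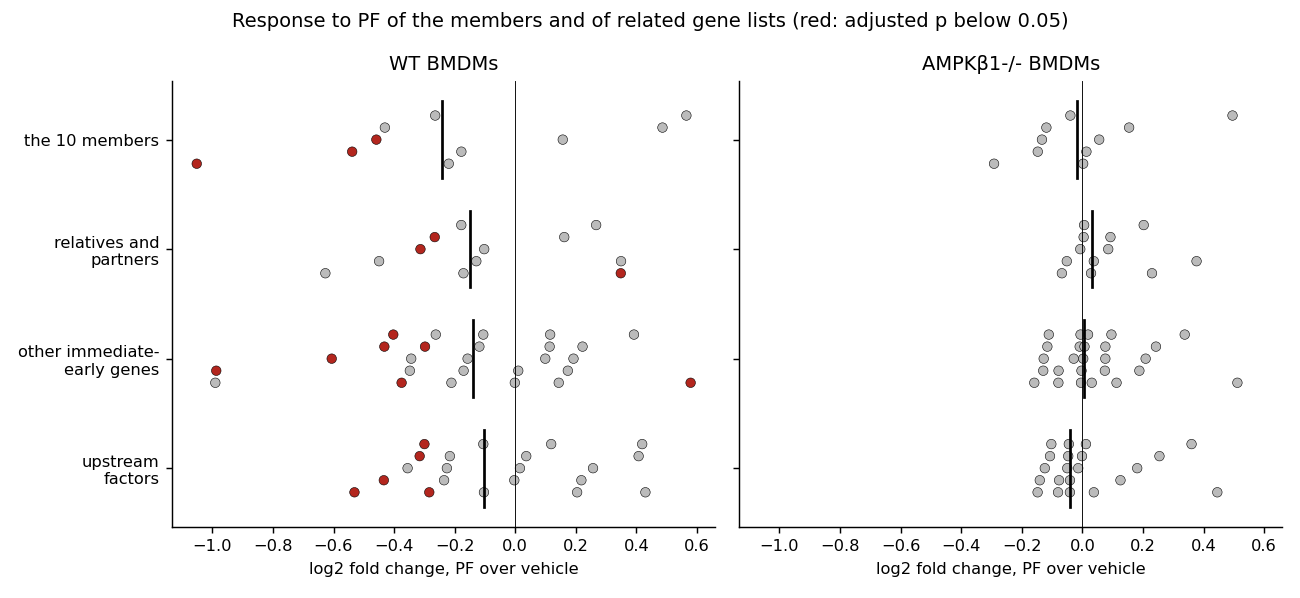
Log2 fold change of PF over vehicle (horizontal axis) for the tested genes of each list, 1 point per gene, in WT (left) and AMPKβ1-/- BMDMs (right); red points had an adjusted p below 0.05, black bars are list medians, and the vertical offset of points has no meaning. In WT 3 of 10, 3 of 12, 7 of 26 and 5 of 21 genes are red and in AMPKβ1-/- BMDMs 0 are.

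Across the 12 libraries some members varied together, given as Pearson's r of log2 CPM as a description, since the groups themselves set much of it. The log2 CPM had no GC adjustment, so the trend in GC content, which differed between the libraries, also enters these values. *Nr4a1*, *Dusp1* and *Btg2* correlated with each other (r = 0.907 for *Nr4a1* and *Btg2*, 0.901 for *Dusp1* and *Btg2*, 0.879 for *Nr4a1* and *Dusp1*). *Egr2* ran against them, with r = -0.84 with *Nr4a1* and -0.772 with *Dusp1*. *Egr1* and *Egr2* had r = 0.6, *Egr3* and *Zfp36* had 0.749, and *Ier2* had no r with another member above 0.452. Among the non-members, the genes most like *Nr4a1* were *Trib1* (0.951), *Cpt1a* (0.951) and *Scarf1* (0.941). Those most like *Dusp1* were *Cxcl14* (0.979), *Ppm1l* (0.968) and *Fos* (0.967), and those most like *Btg2* were *Elk3* (0.969), *Syne3* (0.965) and *Clec4a1* (0.96). *Zfp36* was most like *Ier5* (0.914), *Disc1* (0.901) and *B630019K06Rik* (0.877). *Egr2* was most like *Kit* (0.899), *Fabp3* (0.891) and *Pmp22* (0.889). The closest gene to *Egr1* was *Nudt3* (0.916), to *Egr3* it was *Disc1* (0.84), to *Nr4a2* it was *Ddhd2* (0.906), to *Ier2* it was *Rnf10* (0.984) and to *Ier3* it was *Gm7694* (0.877).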

How the data were processed

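RNA sequencing was done on BMDMs of 2 genotypes with vehicle or PF, with 3 libraries in each of the 4 groups, prepared with a directional kit. The authors used MultiQC on the reads, Trim Galore for trimming and Salmon for quantification. The deposited values are estimated counts per gene, not normalized and already whole numbers, so no rounding was needed. The genome build, annotation and Salmon settings are not given in the sources used here, so positions come from GENCODE M21 on GRCm38, to which 12703 symbols matched directly and 200 through an older symbol, leaving 57 unmatched. Columns were assigned to groups by their names. Library numbers are names without pairing.

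Counts were tested in R 4.3.3 with edgeR 4.0.16 (quasi-likelihood, robust, TMM, filterByExpr by group) fitting the 4 group means together on the 12 libraries, with Benjamini-Hochberg adjustment over 10822 genes and a threshold of 0.05. CPM are relative to TMM-normalized library sizes, log2 CPM used a prior count of 2, and SE are approximate, from fold changes and F statistics. The trend in GC content and transcript length was estimated within each library (natural splines, 5 degrees of freedom) and used as an offset in the fit. Alternatives used limma 3.58.1 (voom), DESeq2 1.42.0, other scalings and filters, the libraries of 2 groups alone and each library left out. Tests ran on simulated data first, in which 87.9% of genes with a log2 change of 1 and 47.0% of those with 0.5 were recovered for PF in WT over 10822 genes. In that simulation 10 unchanged genes were called. Its counts held no trend in GC content, so these rates do not describe libraries that differ in that trend, as these do. No pair of replicate libraries was identical. A gene at 0 in a library could hold up to 3 counts, or 0.196 to 0.321 CPM, which covers counting error only.

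The 10 members, the gene lists and the tests were chosen with earlier results of these data known. Named genes are the 10 members, up to 6 genes with the smallest p among those called from each list in a comparison, the 3 genes most correlated with a member, *Prkab1* and the macrophage markers. *Fos* and *Trib1* were also followed by name between the genotypes. *Jun*, *Pim1*, *Atf3*, *Rhob* and *Maff* were named after their values were seen.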

Additional observations from a re-analysis of the deposited data

Results flagged for a closer look

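The response to PF differed between the genotypes by an edgeR interaction test for 2 listed immediate-early genes, *Trib1* (log2 fold change in WT minus that in AMPKβ1-/- BMDMs -0.871, adjusted p = 0.0236) and *Fos* (-0.68, adjusted p = 0.0261). Both had the same sign in each of 19 alternatives, but *Trib1* lost the call in 7 of them (highest adjusted p = 0.0991) and *Fos* in 9 (highest 0.0985), all but 1 of these when a library was left out.

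For 2 further listed genes all PF libraries were below the vehicle libraries in WT and above them in AMPKβ1-/- BMDMs, out of 59 tested genes of the lists, where 96 of all 10822 tested genes (0.887%) showed such a pattern in either direction. Neither passed the interaction test. *Dusp5*, an ERK phosphatase, had 4.06, 4.43 and 5.28 CPM with vehicle and 3.86, 2.43 and 2.62 CPM with PF in WT, and 4.01, 3.91 and 3.71 CPM with vehicle and 4.53, 4.79 and 5.86 CPM with PF in AMPKβ1-/- BMDMs. The difference was -1.004 with an adjusted p of 0.149 from edgeR. *Ier5* had a difference of -0.3983 with an adjusted p of 0.15.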

How the results depend on the processing

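Of the results for single genes, *Nr4a1* and *Btg2* kept their fall with PF in WT in all 20 alternatives. Members called with PF in WT were 3 in the reported fit, 5 with DESeq2 (*Egr2* and *Zfp36* added) and 2 to 6 with each library left out, the 6 without WT PF library 1; past the fold change threshold there were 0 with the GC and length trend removed. Members with an interaction were 2 with DESeq2 (1 past 0.8), 2 with the GC trend removed and 0 to 2 (0 to 1 past 0.8) with a library left out. Over all genes 190 passed with DESeq2 and 142 with the GC trend removed. Between genotypes with vehicle, 2 to 4 members were called with a library left out (2 without WT vehicle library 3 or AMPKβ1-/- vehicle library 1), and 1 was past 0.8 with the GC trend removed. With PF, 3 to 6 were called, 3 without AMPKβ1-/- PF library 3. Over all genes, calls with PF in WT fell from 1725 to 685 with the GC trend removed and to 419 with WT libraries alone, and were 346 to 3243 with a library left out; the cause was not tested.

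Signs turned with the GC trend removed for *Ier2* (PF in WT 0.0073, PF in AMPKβ1-/- 0.036, genotype with vehicle 0.27 and with PF 0.30), *Egr1*, *Egr3* and *Zfp36* (genotype with vehicle 0.22, 0.20 and 0.18), *Egr2* (interaction 0.055), *Nab2* (PF in WT 0.062, genotype 0.145), *Mapkapk2* (PF in WT 0.016), *Klf2* and *Mapk3* (genotype with vehicle 0.027 and 0.058) and *Btg1* (genotype with vehicle -0.45 and with PF -0.043). With library size alone they turned for *Egr2* (interaction 0.056), *Egr1* and *Egr3* (genotype with vehicle 0.022 and 0.19) and *Nr4a2* and *Ier2* (genotype with PF 0.017 and 0.040). *Egr3* between genotypes with vehicle was at 0.0038 with DESeq2's size factors, 0.0075 with at least 10 counts in every library, 0.0085 with DESeq2, 0.0061 with limma-voom and 0.0057 with 2 groups alone, *Nr4a2* with PF was at 0.015 with limma-voom, and *Btg2* with PF in AMPKβ1-/- at -0.0014 with 2 groups alone.

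With a library left out, signs turned in the ranges of *Btg2* (-0.023 to 0.028), *Dusp1* (-0.045 to 0.098), *Egr3* (-0.053 to 0.12), *Ier2* (-0.079 to 0.037) and *Nr4a2* (-0.27 to 0.030) with PF in AMPKβ1-/-, *Egr3* with PF in WT (-0.39 to 0.033), the interactions of *Egr2* (-0.15 to 0.097) and *Ier3* (-0.067 to 0.21), *Egr3* between genotypes with vehicle (-0.20 to 0.13) and *Nr4a2* with PF (-0.47 to 0.23). None of these was past the threshold in the reported fit, apart from *Ier2*, *Nab2*, *Klf2*, *Mapk3* and *Btg1* between genotypes with vehicle, *Btg1* between genotypes with PF, and *Nab2* and *Mapkapk2* with PF in WT. No paired analysis was possible because the columns carry no replicate numbers that the labels share.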
